A study of Mus musculus with 44 samples.

Results

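The genes described here encode 7 ligands of the tumour necrosis factor (TNF) family: Tnfsf14, Ltb, Lta, Tnf, Tnfsf9, Cd70 and Tnfsf13b. They were read from the 10 probe sets, of 45101 on the array, whose annotation gives 1 gene symbol and that symbol is one of the 7. Tnfsf13b has 3 such probe sets, Tnfsf14 has 2 and the other genes have 1 each. All 7 genes passed the filter on low signals that the tests used, which left 11970 of 18193 genes. Tnfsf14 had only 7 of its 11 group means above that filter and Lta only 6, so for these genes the low groups lie in the range of weak signals.

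The samples were cultures of CH12.LX, a mouse B cell lymphoma line used as a model of the step from activated B cell to antibody-secreting cell. One group received 10 nM of TCDD (2,3,7,8-tetrachlorodibenzo-p-dioxin), a long-lived pollutant that binds the aryl hydrocarbon receptor, and the other its vehicle, dimethyl sulfoxide (DMSO) at 0.01%. TCDD and DMSO cells were both activated with lipopolysaccharide (LPS), a molecule of the bacterial outer membrane that drives B cells to divide and secrete antibody, and were harvested 8, 12, 24, 36 and 48 h later. Cells that received neither TCDD nor DMSO were harvested at 0 h; the design text puts LPS at the time of plating, and whether LPS had acted on the 0 h cells is not stated. With 4 arrays in each of 11 groups there were 44 arrays, and the 4 cultures of a group belong to 4 separate days, so that a replicate number stands for a day. All cultures were of 1 cell line, so p-values measure the spread between days and not between animals. The vehicle cells differ from the 0 h cells in DMSO, time in culture and possibly LPS together, and these cannot be told apart.

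TNF family ligands are mostly membrane proteins that assemble as trimers and bind receptors of the TNF receptor family on neighbouring cells or on the same cell. Receptors that carry a TRAF-binding tail pass the signal to NF-kB and to kinase pathways, and those with a death domain can also start cell death. In lymphoid tissue, B cells are a main source of lymphotoxin, which maintains follicular dendritic cells, while BAFF (Tnfsf13b) keeps B cells themselves alive, and the ligands of 4-1BB and CD27 give co-stimulation to T cells.

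Array quality and cell identity were checked first. The median deposited signal of the arrays lay between 45.2 and 99.2. In all, 4 arrays stood apart in technical measures and were left out in an alternative. Untreated day 3 and DMSO 48 h day 2 had a log2 ratio of the 3′ to the 5′ control probe sets of Tfrc, a sign of RNA quality, of 3.34 and 3.12, where the median array had 1.19. The same ratio for Gapdh was -0.20 and -0.28 on these 2 arrays and -0.50 to -0.29 on the others. Untreated day 4 and DMSO 12 h day 4 had the highest median signals, 99.2 and 87.9. The correlation between 2 arrays of one group was at least 0.949 and at most 0.988. Cyp1a1, the standard target gene of the aryl hydrocarbon receptor, was higher in TCDD than in DMSO cells at every time, by 4.50 to 6.01 on the log2 scale, with no overlap of the arrays. The 7 B cell markers used here all exceeded the filter in at least 1 group. Among markers of other cell types, 5 of 7 measured T cell genes, 1 of 3 NK cell genes, 5 of 8 macrophage genes, 3 of 5 dendritic cell genes and 6 of 6 stromal genes did so too. At 48 h the summed signal of the macrophage list was 2475 to 2904 in TCDD cells and 2144 to 2710 in DMSO cells, that of the stromal list 2280 to 2885 in TCDD cells and 1307 to 1679 in DMSO cells, and that of the T cell list 1095 to 1330 in TCDD cells and 805 to 1038 in DMSO cells. That of the dendritic cell list was 378 to 479 in TCDD cells and 530 to 716 in DMSO cells, and that of the NK cell list 42 to 93 in TCDD cells and 22 to 105 in DMSO cells. At 24 h the macrophage sum was 2591 to 2977 in TCDD cells and 1316 to 1527 in DMSO cells. Of the macrophage genes tested at 48 h, 2 of 5 were called higher in TCDD cells (Csf1r and Adgre1) and 1 lower (Cd68), and Lyz2, Itgam and Mrc1 were under the filter in every group. Of the stromal genes 2 of 6 were called higher (Pdgfrb and Pecam1) and none lower, of the dendritic cell genes 1 of 3 higher (Flt3) and 2 lower (Itgax and Zbtb46), and of the 5 T cell genes and 1 NK cell gene none was called. Csf1r and Pdgfrb were called higher, and Itgax lower, in TCDD cells at all 5 times. Blk, of the B cell list, was also called higher in TCDD cells at all 5 times (0.67 at 48 h). At 48 h 2 of the 7 B cell genes were called higher in TCDD cells (Blk and Cd79b) and none lower. Earlier, 1 was called lower at each of 8, 12 and 24 h, where 1.4%, 3.14% and 2.77% of all genes were. At these times 1, 2 and 2 were called higher. The lower ones were Ms4a1 at 8 h (-0.50) and 12 h (-0.70) and Cd22 at 24 h (-0.62). Against untreated cells, 4 of the 7 B cell genes were called lower in DMSO cells at 48 h, where 20.5% of all genes were. These were Ms4a1 (-3.07), Cd22 (-2.17), Blk (-0.84) and Cd79b (-0.22), while Ighm was called higher (1.12). The summed signal of the B cell list was 24268 to 29222 in untreated cells. In DMSO cells it was 11666 to 14011 at 8 h and 16835 to 18530 at 48 h. The part of these markers in the results below was not tested. In bulk RNA, fewer cells expressing a gene and less RNA per cell cannot be told apart.

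All levels below are log2(signal + 16) after quantile normalization, a scale on which a signal of 0 is 4, so that changes of weak genes are understated. A change is the mean of the first group minus that of the second, with the standard error (SE) of limma's fit over all 44 arrays. A gene is called when its p, adjusted by Benjamini-Hochberg over the 11970 genes, is below 0.05.

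Tnfsf14 encodes LIGHT, a ligand of the lymphotoxin beta receptor and of the herpesvirus entry mediator. It lies on chromosome 17 in a run of 3 neighbouring ligand genes, Tnfsf9, Cd70 and Tnfsf14. Ltb, Tnf and Lta form a second run on the same chromosome. The sequences around the annotated starts of Tnfsf14, Ltb and Lta are shown because these were the ligands whose signal was lowest, relative to untreated cells, in DMSO cells at late times. They are RefSeq windows of 300 bases on GRCm38.p6, covering 250 bases before the start and 50 after it, written 5′ to 3′ along the gene. Capitals mark matches to GCGTG, the core of the motif bound by the aryl hydrocarbon receptor, or to a form of the NF-kB motif (GGG, any 3 bases, then TTCC), on either strand.
Tnfsf14, chr17:57194132-57194431, minus strand: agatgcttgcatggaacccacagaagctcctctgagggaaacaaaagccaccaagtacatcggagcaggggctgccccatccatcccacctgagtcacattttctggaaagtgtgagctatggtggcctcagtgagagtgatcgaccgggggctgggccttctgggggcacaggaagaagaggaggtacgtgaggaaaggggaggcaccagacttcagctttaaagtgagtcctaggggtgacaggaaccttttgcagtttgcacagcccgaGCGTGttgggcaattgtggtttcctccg
Ltb, chr17:35194257-35194556, plus strand: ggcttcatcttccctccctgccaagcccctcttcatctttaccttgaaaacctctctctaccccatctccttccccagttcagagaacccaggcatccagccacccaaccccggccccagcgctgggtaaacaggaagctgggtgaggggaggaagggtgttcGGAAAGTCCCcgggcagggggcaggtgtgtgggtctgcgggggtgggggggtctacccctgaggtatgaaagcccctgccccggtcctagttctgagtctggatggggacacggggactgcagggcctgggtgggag
Lta, chr17:35205302-35205601, minus strand: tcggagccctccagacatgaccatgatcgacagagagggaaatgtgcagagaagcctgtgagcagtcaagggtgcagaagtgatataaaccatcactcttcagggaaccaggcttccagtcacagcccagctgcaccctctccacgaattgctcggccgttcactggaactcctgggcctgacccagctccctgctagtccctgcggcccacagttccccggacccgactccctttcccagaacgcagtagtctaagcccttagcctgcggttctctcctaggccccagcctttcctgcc
The Tnfsf14 window holds 1 GCGTG, at bases 273 to 277 and so just after the annotated start. The Ltb window holds 1 match to the NF-kB form on the opposite strand, at bases 164 to 173, before the start. The Lta window holds neither, nor do the windows of Tnf and of Tnfsf13b. GCGTG occurs in 32.39% of 32851 windows of this kind and the NF-kB form in 5.555%, and the 2 matches do not overlap since they lie in different genes. Windows were matched for 5 of the 7 genes; Tnfsf9 and Cd70 are named only.

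The first comparison asked how TCDD changed the ligands at each time of activation. Of 35 pairs of gene and time, 10 were called, where 7.14% of all pairs were called over the 11970 genes. All 10 were higher in TCDD cells, where 4.29% of all pairs were. The calls were 1 of 7 genes at 8 h (2.75% of all genes were called higher), 2 at 12 h (6.07%), 3 at 24 h (4.8%), 2 at 36 h (3.49%) and 2 at 48 h (4.31%). The arrays of the 2 groups did not overlap in 12 of the 35 pairs, against 12.6% of all pairs. Over the 7 genes the median change was -0.17 at 8 h and 0.62 at 48 h, and over all genes -0.01 and -0.02. With the day as a block, 13 pairs were called, 11 higher and 2 lower, and 13% of all pairs were called in either direction. The genes and the times share arrays, so these counts describe the ligands and are not independent observations.

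**Figure D1:**
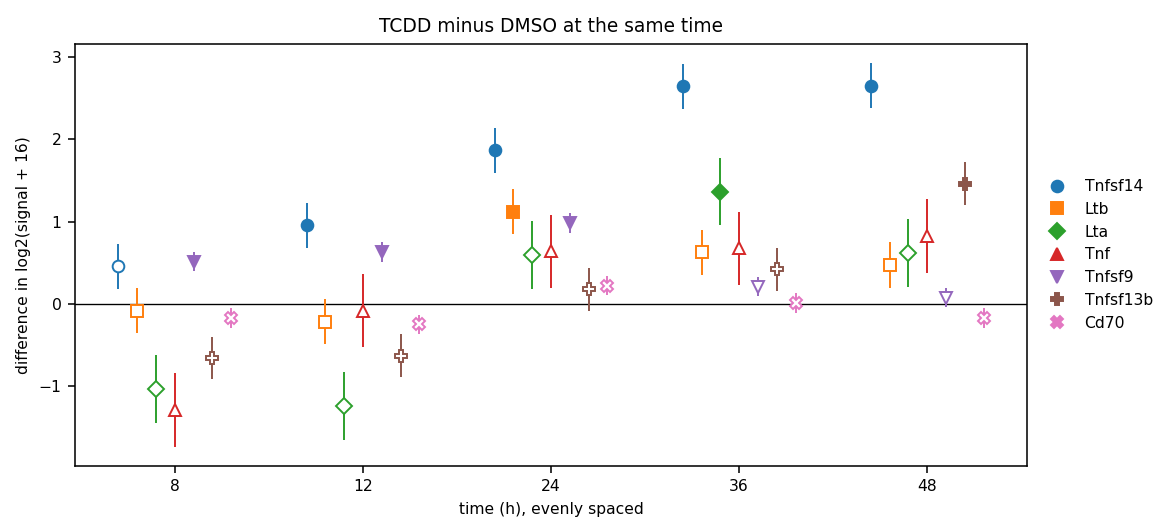
TCDD minus DMSO for each ligand at 8, 12, 24, 36 and 48 h (x axis, evenly spaced), in units of log2(signal + 16) on the y axis. Points are fitted changes, bars are standard errors over 4 arrays a group, and filled points have an adjusted p below 0.05. All 10 filled points lie above 0, the highest being those of Tnfsf14 at 36 h (2.65) and 48 h (2.66).

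Tnfsf14 gave the largest TCDD difference among the 7 genes. At 48 h its level was 6.96, 7.05, 7.48 and 7.11 on the 4 TCDD arrays, against 4.46, 4.36, 4.65 and 4.51 on the DMSO arrays. The lowest TCDD array thus stood more than 2 units above the highest DMSO array. The fitted change was 2.66 (SE 0.27), or 6.3-fold on this scale, with an adjusted p of 1.07e-08 by limma. At 36 h the TCDD arrays read 7.17, 7.04, 7.36 and 7.13 and the DMSO arrays 4.50, 4.44, 4.93 and 4.24, again without overlap (change 2.65, SE 0.27, adjusted p 1.62e-08). At 24 h they read 6.89, 7.07, 7.42 and 6.90 with TCDD, and 5.20, 4.54, 5.69 and 5.38 with DMSO (change 1.87, SE 0.27, adjusted p 5.37e-06). The 4 DMSO arrays at 36 and at 48 h lay within a unit of the floor of 4, so the size of these changes depends on the constant added before the logarithm: the 48 h change was 1.43 with 64 added and 4.10 with 1 added, and was called in both cases.

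At 12 h the Tnfsf14 arrays overlapped. The TCDD arrays read 6.62, 6.83, 7.22 and 6.57 and the DMSO arrays 5.70, 4.84, 6.88 and 5.99, with the TCDD array higher on each of the 4 days. The change of 0.96 (SE 0.27) had an adjusted p of 0.02, but this call was lost without day 1 (0.97, adjusted p 0.0862), without day 2 (0.61, adjusted p 0.32), without day 4 (1.08, adjusted p 0.0901), with only the compared arrays in the fit (adjusted p 0.245), with values as deposited (adjusted p 0.0669) and with the mean of both probe sets (0.70, adjusted p 0.0829). At 8 h the change was 0.46 (95% interval -0.10 to 1.02, adjusted p 0.518), also with the TCDD array higher on 4 of 4 days. The change differed between times, with an adjusted p of 0.000166 in limma's F test of the 4 interaction contrasts, which called 4 of the 7 ligands and 6.98% of all genes.

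The second, dimmer Tnfsf14 probe set was not used for the counts above. In TCDD cells at 48 h it read 6.35, 6.51, 7.18 and 6.64, against 4.47, 4.66, 4.67 and 4.34 in DMSO cells. Its change was 2.14 (SE 0.35, adjusted p 8.9e-05 in the fit of all probe sets), and that at 24 h was 1.80 (adjusted p 0.00072). At 12 h it was 0.44 with an adjusted p of 0.593. Both probe sets were higher with TCDD from 24 h on.

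Ltb encodes lymphotoxin beta, the membrane subunit that anchors lymphotoxin alpha at the cell surface. It was called higher in TCDD cells at 24 h only. The TCDD arrays then read 8.52, 8.38, 9.39 and 8.95, and the DMSO arrays 7.47, 7.58, 8.15 and 7.58. All TCDD arrays lay above all DMSO arrays, by 1.12 (SE 0.28) in the mean, or 2.17-fold (adjusted p 0.00624). Without day 4 this call was lost (1.05, adjusted p 0.0575). At 36 h TCDD arrays spanned 8.51 to 9.24 and DMSO arrays 8.09 to 8.52, and the change of 0.62 was not called (adjusted p 0.23) unless the day was a block (adjusted p 0.0458). At 8, 12 and 48 h the changes were -0.08, -0.22 and 0.47. Whether the Ltb change differed between times depended on the block as well, with an adjusted p of 0.101 without it and 0.00534 with it.

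Lta encodes lymphotoxin alpha, which is secreted as a ligand of the TNF receptors or held at the membrane by lymphotoxin beta. Its TCDD changes were negative at 8 and 12 h and positive from 24 h on, with a call at 36 h only. At 12 h the TCDD arrays read 4.92, 6.28, 6.44 and 5.14, and the DMSO arrays 6.55, 6.18, 8.09 and 6.94. The arrays overlapped, and the change of -1.25 (SE 0.41) just missed the threshold (adjusted p 0.0505), while the fit with the day as a block called it (adjusted p 0.0392). At 36 h the TCDD arrays read 6.54, 6.48, 6.27 and 6.65, and the DMSO arrays 5.55, 4.88, 4.66 and 5.40. These did not overlap, and the change of 1.37 (SE 0.41), or 2.58-fold, was called with an adjusted p of 0.0408. That call was lost when any day was left out (adjusted p 0.0543 to 0.276) and also without the filter (0.0647), with values as deposited (0.067), with all probe sets (0.0577) and with 64 added (0.72, adjusted p 0.108). At 8 h the change was -1.03 (adjusted p 0.19), with the TCDD array lower on 4 of 4 days. The F test called the difference between times (adjusted p 0.00533), but not without day 2 (0.0916) or day 4 (0.154).

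Tnf, the founding member of the family and a soluble or membrane-bound inflammatory cytokine, was not called at any time. At 8 h its TCDD arrays read 6.55, 7.59, 7.96 and 5.45, and its DMSO arrays 7.92, 8.06, 9.22 and 7.53. The groups overlapped, though the TCDD array was lower on each day, and the change of -1.29 (SE 0.45) had an adjusted p of 0.106, or 0.0436 with the day as a block. From 24 to 48 h the changes were 0.64, 0.68 and 0.83, with intervals that reached from -0.26 to 1.73. At 36 h the arrays did not overlap, TCDD lying at 7.38 to 8.46 and DMSO at 6.55 to 7.32, yet the adjusted p was 0.505. Tnf had the widest spread among the 7 genes, with an SE of 0.45 per change. Even its 8 h change of -1.29 was not called without the block, so changes of that size or smaller could not be resolved there. The F test gave an adjusted p of 0.099, or 0.0334 with the day as a block.

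Tnfsf9 encodes the ligand of 4-1BB, a co-stimulatory receptor of T cells. It was called higher in TCDD cells at 8, 12 and 24 h. At 8 h the TCDD arrays read 12.59, 12.59, 12.59 and 12.63, and the DMSO arrays 12.04, 11.98, 12.16 and 12.17. The groups stood apart, with a change of 0.51 (SE 0.12, adjusted p 0.00575), a call that was lost without day 1 (adjusted p 0.0678) or day 2 (adjusted p 0.0807). At 12 h the change was 0.63 (adjusted p 0.000315). At 24 h the TCDD arrays read 13.33, 13.01, 13.21 and 12.997, and the DMSO arrays 12.32, 11.97, 12.36 and 11.98. This was the largest Tnfsf9 difference, 0.98 (SE 0.12), or 1.98-fold, with an adjusted p of 1.24e-07 and no overlap. At 36 h the change was 0.21 (95% interval -0.03 to 0.45) and at 48 h 0.07 (-0.17 to 0.31), and neither was called. The F test called the difference between times (adjusted p 0.00176), except without day 4 (adjusted p 0.064).

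Cd70 encodes the ligand of CD27, a co-stimulatory receptor of T cells and memory B cells. It was not called in any TCDD comparison. Its changes ran from -0.25 at 12 h to 0.22 at 24 h, all arrays overlapped, and the 95% intervals over the 5 times reached from -0.49 to 0.46. Its F test gave an adjusted p of 0.291, or 0.124 with the day as a block. Cd70 and Tnfsf9 lie next to each other in the genome, and their 24 h changes were 0.22 and 0.98; the difference between them was not tested.

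Tnfsf13b encodes BAFF, the B cell survival factor. It was called higher in TCDD cells at 48 h, when the TCDD arrays of the brightest probe set read 7.14, 6.77, 6.81 and 6.73 and the DMSO arrays 4.91, 6.19, 4.23 and 6.27. The groups did not overlap, but the DMSO arrays were spread over 2 units, with days 1 and 3 low and days 2 and 4 higher. The change was 1.46 (SE 0.26), or 2.75-fold, with an adjusted p of 0.000172; it was not called when only the compared arrays entered the fit (adjusted p 0.125). Its size was 0.80 with 64 added, 2.25 with 1 added and 0.61 with the mean of the 3 probe sets, each of them called, and the DMSO mean lay under the filter. At 8 and 12 h the arrays did not overlap either, with TCDD lower on each of the 4 days, and the changes of -0.66 and -0.63 were not called (adjusted p 0.186 and 0.136), except with 64 added before the logarithm. The F test called the difference between times (adjusted p 0.000481), except without day 1 (adjusted p 0.0751).

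The other probe sets of Tnfsf13b were not called at 48 h. The dimmest (probe set 3) read 5.41, 4.40, 4.46 and 6.12 in TCDD cells at 48 h, against 4.15, 4.39, 5.60 and 5.24 in DMSO cells, and these overlapped (change 0.25, SE 0.35, adjusted p 0.792). The middle one (probe set 2) lay between 5.82 and 6.99 on all arrays, with a difference of 0.10 at 48 h (adjusted p 0.868). The call for Tnfsf13b thus rests on 1 of its 3 probe sets.

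**Figure D2:**
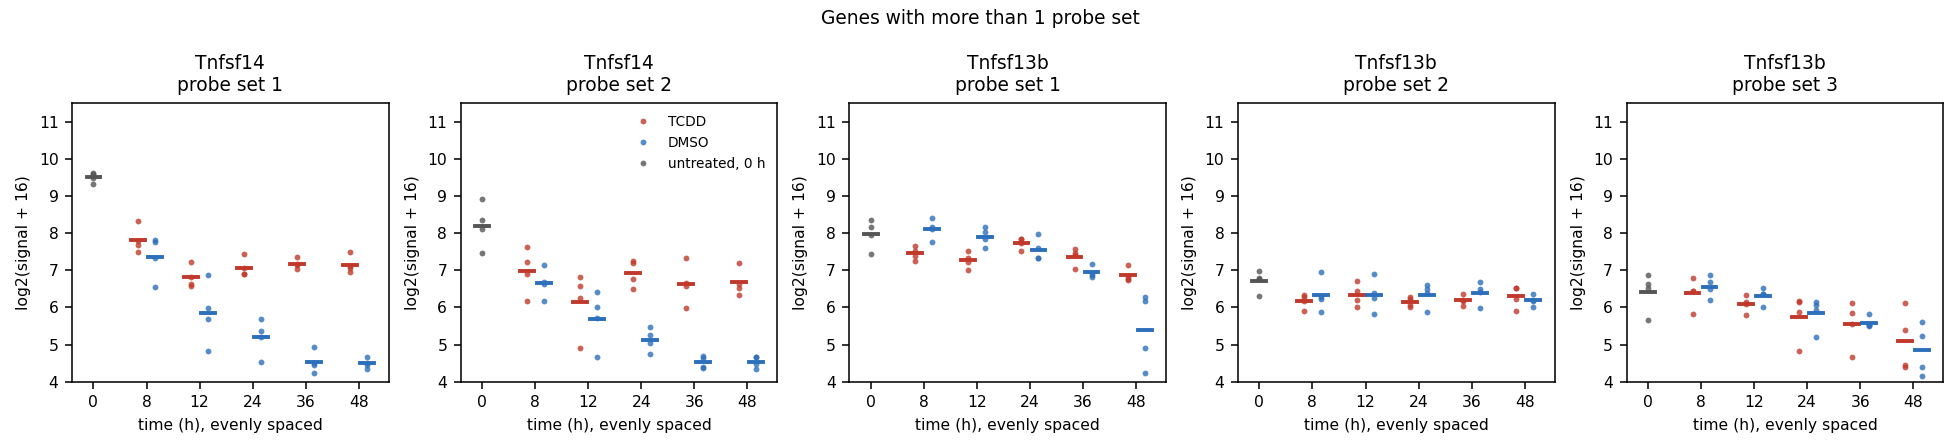
Levels of the 2 probe sets of Tnfsf14 and the 3 of Tnfsf13b by time (x axis, hours, evenly spaced), as log2(signal + 16) on the y axis. Points are arrays, bars are means of 4, with TCDD left of DMSO at each time; probe sets are numbered from the brightest. Both Tnfsf14 probe sets separate TCDD from DMSO cells at 48 h (changes 2.66 and 2.14), while of Tnfsf13b only probe set 1 does (1.46, against 0.10 and 0.25 for the others).

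The next comparison followed the ligands through activation in vehicle cells, each time against the untreated cells. These comparisons share the untreated arrays, and share the DMSO arrays with the TCDD comparisons. Of 35 pairs of gene and time 26 were called (28.9% of all pairs), 10 higher and 16 lower, where 14.1% and 14.8% of all pairs were. The arrays did not overlap in 25 of the 35 pairs, against 23.1% of all pairs. By time, 4 of 7 genes were called at 8 h (24.6% of all genes), 5 at 12 h (24.8%), 5 at 24 h (19.7%), 6 at 36 h (31.3%) and 6 at 48 h (43.9%). Tnfsf14 and Ltb were lower and Tnfsf9 and Cd70 higher at all 5 times, Lta was lower from 12 h on, Tnfsf13b was lower at 36 and 48 h, and Tnf was not called. The fit with the day as a block also called 26 (36.7% of all pairs).

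**Figure D3:**
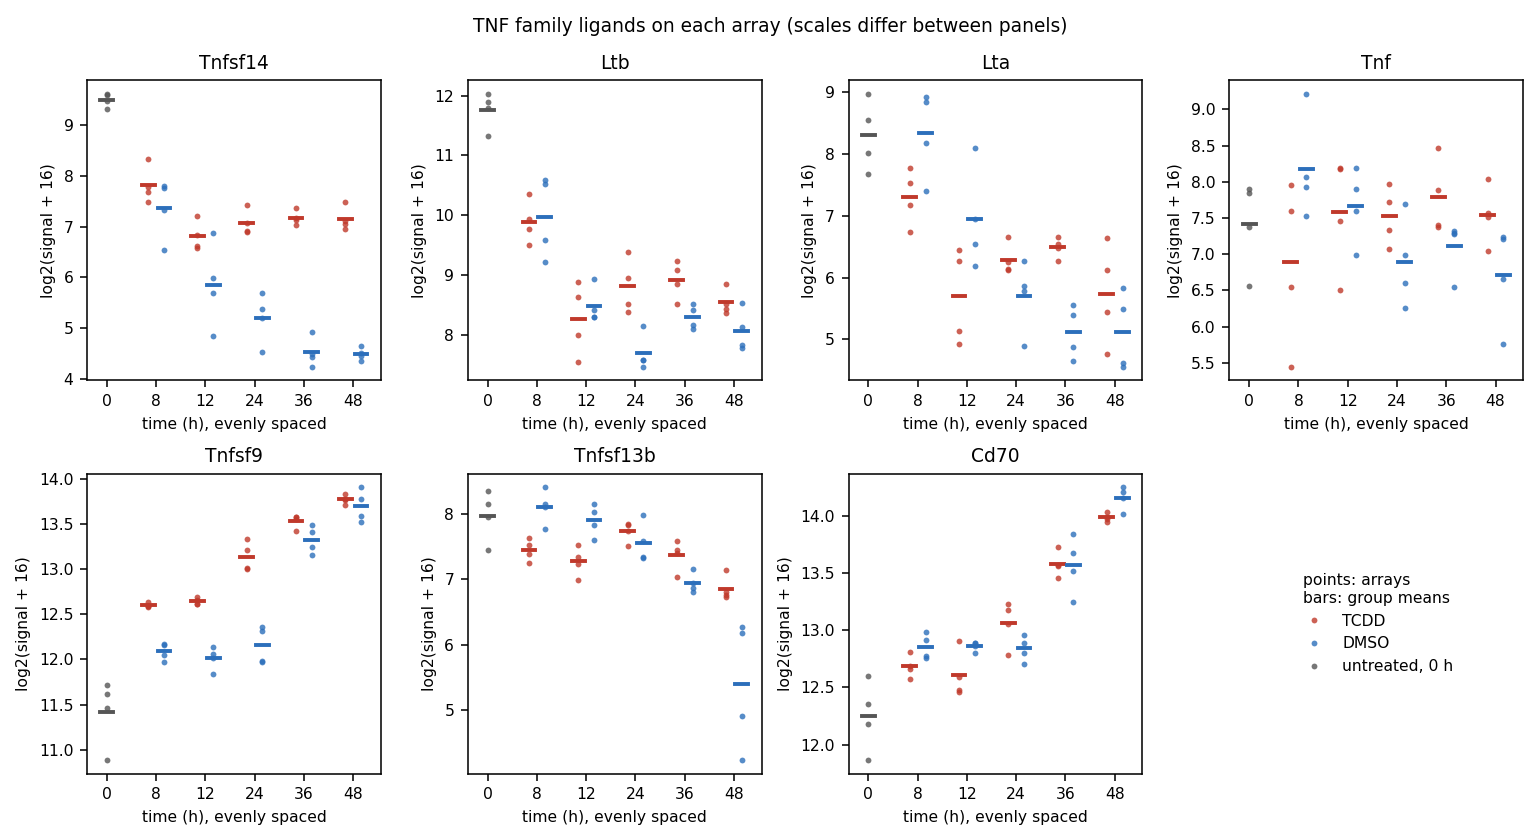
Levels of the 7 ligands on all 44 arrays by time (x axis, hours, evenly spaced), as log2(signal + 16) on the y axis, whose range differs between panels. Points are arrays and bars are means of 4, with TCDD left of DMSO at each time and untreated cells at 0 h. Tnfsf14 held a mean of 7.15 in TCDD cells at 48 h, against 4.49 in DMSO cells, and Tnfsf9 and Cd70 climbed in both.

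Tnfsf14 read 9.47, 9.32, 9.61 and 9.59 on the untreated arrays. In DMSO cells it already lay at 6.55 to 7.80 at 8 h, a change of -2.14 (SE 0.27, adjusted p 1.47e-07). It was at 4.24 to 4.93 by 36 h, a change of -4.97 (adjusted p 1.12e-16). Its deposited signal averaged 7.72 in DMSO cells at 48 h and 705 in untreated cells. Between neighbouring times in DMSO cells the drop at 12 h against 8 h was called (-1.51, adjusted p 0.0014; 1.44% of all genes called), except without day 2 (-1.16, adjusted p 0.0954), without day 4 (-1.43, adjusted p 0.0707) or with only the compared arrays (adjusted p 0.352). The next 2 steps were not called, but were with the day as a block (-0.65 and -0.67, adjusted p 0.0223 and 0.0169). In TCDD cells the step at 12 h against 8 h was also called, at -1.01 (adjusted p 0.0372; 2.57% of all genes), though not without day 1, 2 or 4 (adjusted p 0.123 to 0.271), with only the compared arrays (0.0804), without the filter (0.0607), with values as deposited (0.114) or with 1 added (0.171). With the dimmer probe set neither step at 12 h against 8 h was called. It changed by -0.96 in DMSO cells and -0.84 in TCDD cells (adjusted p 0.277 and 0.289 in the fit of all probe sets). With the brighter probe set the TCDD steps after 12 h were 0.26, 0.10 and -0.02, and none was called. So Tnfsf14 was below the untreated level on every TCDD array, at 6.57 to 8.33, and its group means in TCDD cells from 12 to 48 h lay between 6.81 and 7.17.

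Ltb read 11.32, 11.90, 11.80 and 12.03 in untreated cells. DMSO arrays stood at 9.22 to 10.59 at 8 h (change -1.78, SE 0.28, adjusted p 4.37e-06) and at 7.47 to 8.15 at 24 h, the lowest point (-4.07, adjusted p 3.9e-14). At 48 h they stood at 7.77 to 8.54. After 8 h the largest step came at 12 h against 8 h, in DMSO cells at -1.49 (adjusted p 0.00162) and in TCDD cells at -1.63 (adjusted p 0.000489). The DMSO step was lost without day 4 (-1.28, adjusted p 0.0672), and both were lost with only the compared arrays (adjusted p 0.0682 in TCDD cells and 0.23 in DMSO cells). The further DMSO steps at 24 h (-0.79) and 36 h (0.61) were not called, but were with the block (adjusted p 0.00597 and 0.0374). In TCDD cells Ltb reached its lowest mean, 8.27, at 12 h, and in DMSO cells, 7.69, at 24 h.

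Lta was not called at 8 h in the DMSO arrays, which read 7.40, 8.18, 8.92 and 8.85, against 7.67, 8.01, 8.97 and 8.56 in untreated cells (change 0.04, 95% interval -0.80 to 0.87). It was lower by 36 h, where the DMSO arrays read 5.55, 4.88, 4.66 and 5.40 and no longer overlapped with the untreated ones (-3.18, SE 0.41, adjusted p 1.42e-07). The 12 h change of -1.36 (adjusted p 0.0128) was lost without day 2 (-1.19, adjusted p 0.13), without day 4 (-1.31, adjusted p 0.0919), with 1 added (adjusted p 0.0527), with only the compared arrays (adjusted p 0.0871) and without the 4 arrays that stood apart in technical measures (-0.91, adjusted p 0.28). In TCDD cells the step at 12 h against 8 h was called at -1.61 (adjusted p 0.0244), although not without day 1, 2 or 4 (adjusted p 0.0796 to 0.295) or with only the compared arrays (0.116). The same step in DMSO cells was -1.40 and was not called (adjusted p 0.0805). It was called in 3 of the 16 alternatives: with the day as a random block (0.0414), with 64 added (0.0204) and without day 3 (0.039). In DMSO cells the step called was that at 24 h against 12 h (-1.24, adjusted p 0.0488), where 9.99% of all genes were called. This call was lost without day 2, 3 or 4 (adjusted p 0.0932 to 0.428). It was also lost under 7 other settings (0.0511 to 0.169), among them no filter and only the compared arrays.

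Tnf was not called against untreated cells at any time. DMSO arrays at 8 h read 7.92, 8.06, 9.22 and 7.53, against 6.57, 7.90, 7.84 and 7.38 in untreated cells, higher on 4 of 4 days by 0.76 on average (95% interval -0.14 to 1.67, adjusted p 0.234). At 48 h the change was -0.71 (adjusted p 0.208). No step of Tnf between neighbouring times was called in either treatment.

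Tnfsf9 and Cd70 rose. Tnfsf9 read 13.59, 13.53, 13.77 and 13.91 in DMSO cells at 48 h, against 11.62, 11.71, 10.88 and 11.46 in untreated cells, a change of 2.28 (SE 0.12), or 4.85-fold, with an adjusted p of 1.17e-17. Cd70 read 14.16, 14.25, 14.21 and 14.01 in DMSO cells at 48 h, against 12.60, 12.36, 11.86 and 12.18 in untreated cells (1.91, SE 0.12, 3.75-fold, adjusted p 1.86e-15). The DMSO arrays of both genes lay above the untreated arrays at all 5 times. The Cd70 calls at 12 and 24 h were lost without the 4 arrays that stood apart (adjusted p 0.051 and 0.0589), and with only the compared arrays those of Tnfsf9 at 12 and 24 h (0.0848 and 0.0516) and of Cd70 at 24 h (0.0543) were lost. In DMSO cells no step of either gene was called between 8 and 24 h, with means at 0.67 and 0.73 above untreated cells for Tnfsf9 and 0.61 and 0.59 for Cd70. Both then stepped up at 36 h against 24 h, Tnfsf9 by 1.17 (adjusted p 5.24e-08) and Cd70 by 0.73 (adjusted p 7.13e-05), a step at which 10% of all genes were called. In TCDD cells both stepped up at 24 h against 12 h, Tnfsf9 by 0.49 (adjusted p 0.00467) and Cd70 by 0.45 (adjusted p 0.0105), where 9.85% of all genes were called. The Cd70 step in TCDD cells was lost without day 2 (0.42, adjusted p 0.16), without day 3 (0.41, adjusted p 0.058) or with only the compared arrays (0.102), and that of Tnfsf9 without day 1 (0.44, adjusted p 0.0641). Cd70 in TCDD cells stepped up again at 36 h (0.52, adjusted p 0.026) and 48 h (0.41, adjusted p 0.0386), where 0.844% and 5.05% of all genes were called; the first was lost without day 2, 3 or 4, with only the compared arrays, without the filter and with values as deposited (0.0526 to 0.297), and the second without any one day, with only the compared arrays, without the filter and with all probe sets (0.0526 to 0.252). In DMSO cells the steps at 48 h were 0.37 for Tnfsf9 (adjusted p 0.0257), lost without day 2 or 4, with only the compared arrays and with values as deposited (0.0651 to 0.305), and 0.59 for Cd70 (adjusted p 0.000583), lost with only the compared arrays (0.0632). The difference in timing between TCDD and DMSO cells was not tested as such.

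Tnfsf13b was not called in DMSO cells at 8, 12 and 24 h, with changes of 0.13, -0.07 and -0.42 against untreated cells; with the mean of its probe sets the 24 h change was called (-0.46, adjusted p 0.0137). At 36 h it read 6.88, 7.16, 6.81 and 6.94 in DMSO cells, against 7.96, 8.15, 8.35 and 7.44 in untreated cells (change -1.03, SE 0.26, adjusted p 0.00224). The arrays at both 36 and 48 h lay below all untreated arrays. The 48 h change was -2.58 (adjusted p 3.3e-10), and the step at 48 h against 36 h in DMSO cells was -1.55 (adjusted p 6.45e-05; 16.4% of all genes called), a call lost with only the compared arrays (0.0821). The step at 48 h in TCDD cells was -0.51 and was not called (adjusted p 0.306). Probe set 3 also fell in DMSO cells at 48 h, by 1.58 (adjusted p 0.00032 in the fit of all probe sets), and probe set 2 changed by -0.52 (adjusted p 0.0435). At 36 h neither was called in that fit, with -0.83 for probe set 3 (adjusted p 0.0728) and -0.32 for probe set 2 (0.274).

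Over all 4 steps between neighbouring times, 8 of 28 pairs of gene and step were called in DMSO cells, 4 higher and 4 lower, where 9.48% of all pairs were called. In TCDD cells 7 of 28 were called, 4 higher and 3 lower, against 4.58% of all pairs. All 3 lower calls in TCDD cells, those of Tnfsf14, Ltb and Lta, came at 12 h against 8 h. With the block the DMSO count became 12 (16.3% of all pairs) and the TCDD count stayed at 7 (10.2%); with only the compared arrays they were 2 and 1.

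**Figure D4:**
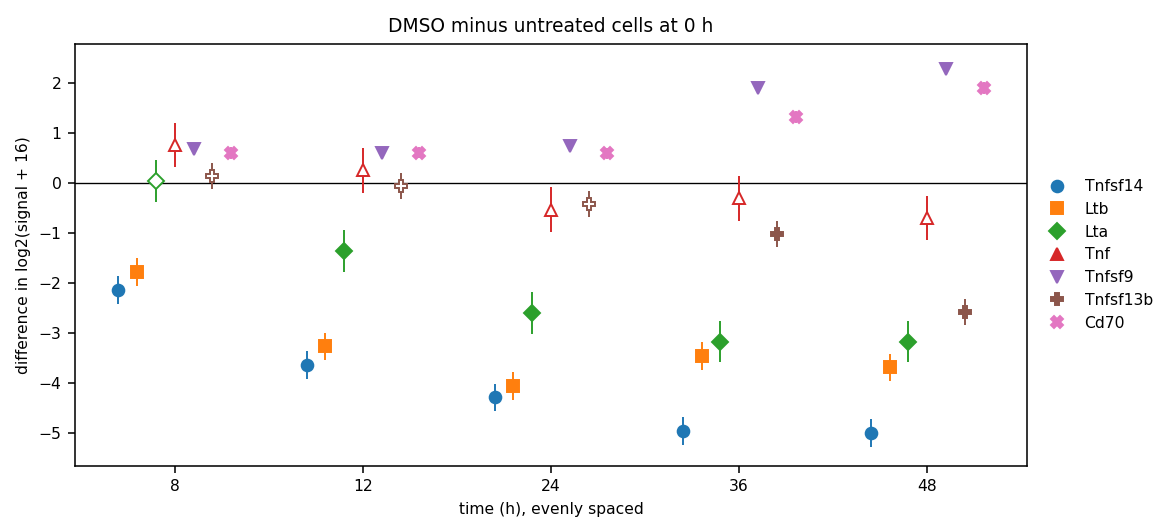
DMSO cells minus untreated cells at 0 h for each ligand at 5 times (x axis, hours, evenly spaced), in units of log2(signal + 16) on the y axis. Points are fitted changes, bars are standard errors over 4 arrays a group, and filled points have an adjusted p below 0.05. Ltb ended at -3.69 and Lta at -3.18, Tnfsf9 and Cd70 at 2.28 and 1.91, and Tnf stayed unfilled.

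When the 11 group means of a gene were put in order, most neighbours in the order overlapped in their arrays. Only 1 of 10 neighbouring pairs stood apart for Tnfsf14 (untreated above TCDD at 8 h) and for Tnfsf13b (TCDD above DMSO at 48 h). For Ltb 2 pairs stood apart, untreated cells above DMSO at 8 h and TCDD at 8 h above TCDD at 36 h. For Tnfsf9 3 pairs stood apart: TCDD at 24 h above TCDD at 12 h, TCDD at 8 h above DMSO at 24 h, and DMSO at 12 h above untreated cells. For Cd70 2 pairs stood apart, the 48 h groups above those at 36 h and the 36 h groups above the rest. For Lta and Tnf no neighbours stood apart.

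The receptors of the 7 ligands are 9 genes, all measured, of which 6 passed the filter: Tnfrsf1a, Tnfrsf1b, Ltbr, Tnfrsf9, Tnfrsf13b and Tnfrsf13c. The genes for the herpesvirus entry mediator (Tnfrsf14), for BCMA (Tnfrsf17) and for CD27 did not. Both called receptors in TCDD cells were receptors of BAFF. Of the 6 tested, 1 was called higher at 8, 36 and 48 h (2.75%, 3.49% and 4.31% of all genes). At 8, 12 and 24 h 1 was called lower (1.4%, 3.14% and 2.77% of all genes). Tnfrsf13b, which encodes TACI, was lower in TCDD than in DMSO cells at 8 h, at 13.31 to 13.57 with TCDD and 13.98 to 14.17 with DMSO (change -0.63, SE 0.08, adjusted p 1.01e-06). It was also lower at 12 h (-0.62, adjusted p 1.03e-06) and 24 h (-0.38, adjusted p 0.00148). Tnfrsf13c, which encodes the BAFF receptor itself, was higher in TCDD cells at 8 h (0.49, adjusted p 0.00689), 36 h (0.62, adjusted p 0.000333) and 48 h (0.74, SE 0.11, adjusted p 2.14e-05), and with the day as a block at 24 h too (0.29, adjusted p 0.0168, against 0.127 without it). At 48 h its arrays spanned 12.49 to 12.999 with TCDD and 11.84 to 12.28 with DMSO, without overlap. In DMSO cells Tnfrsf13c was below untreated cells by 1.16 at 48 h (adjusted p 1.91e-10; change -1.16), and Tnfrsf13b was above them at 8 h by 0.86 (adjusted p 1.73e-10). Tnfrsf9, the receptor of the Tnfsf9 product, was lower in DMSO cells at 48 h (-1.07, adjusted p 0.00984), at 5.38 to 7.58 in DMSO and 7.25 to 8.73 in untreated cells. Ltbr was not called in any of these comparisons.

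**Figure D5:**
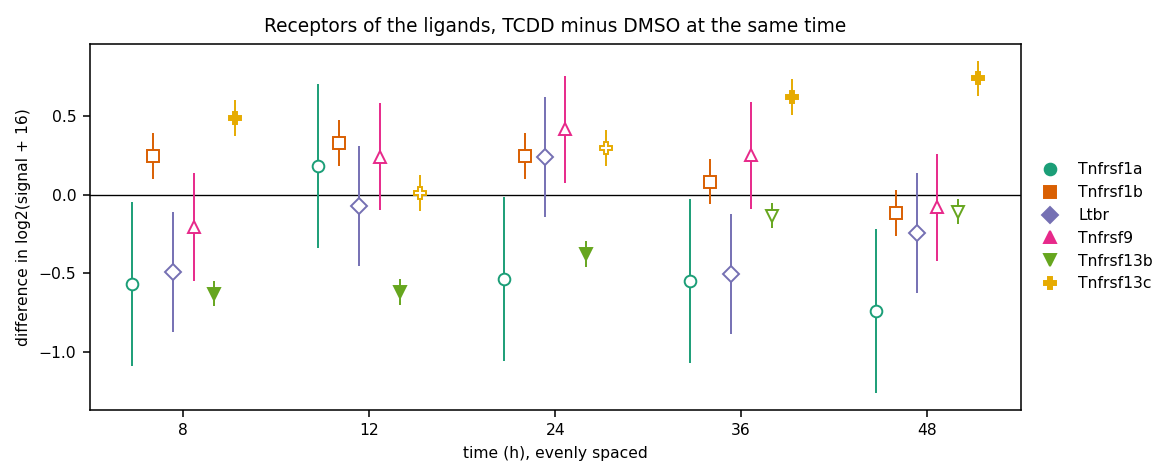
TCDD minus DMSO at 5 times (x axis, hours, evenly spaced) for the 6 receptor genes that passed the filter, in units of log2(signal + 16) on the y axis. Points are fitted changes, bars are standard errors over 4 arrays a group, and filled points have an adjusted p below 0.05. Tnfrsf13b lies below 0 and is filled at 8, 12 and 24 h, and Tnfrsf13c lies above 0 and is filled at 8, 36 and 48 h.

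Of 20 listed receptor adaptors and NF-kB genes, 16 were measured and tested. At 48 h, 0 were called higher and 6 lower in TCDD cells, with a median change of -0.28, where 4.54% of all genes were called lower and the median of all genes was -0.02. With the day as a block 9 were called lower (8.15% of all genes). The 6 were Traf1 (-0.86, adjusted p 0.000394) and Traf2 (-0.54), which encode TRAF adaptors; Birc2 (-0.83, adjusted p 9.68e-06) and Birc3 (-0.56), which encode inhibitor-of-apoptosis proteins bound to them; Relb (-0.74, adjusted p 0.00857), a subunit of NF-kB; and Tnfaip3 (-0.72, adjusted p 0.015), a feedback inhibitor. All 6 had 4 TCDD arrays at 48 h without overlap with the DMSO arrays except Traf2, at 9.87 to 10.35 with TCDD and 10.21 to 10.97 with DMSO. The 6 were picked by their calls on these same arrays, so this separation describes them and adds no support. At 36 h 1 of the 16 was higher (Traf5; 3.49% of all genes) and 2 were lower (Traf1 and Birc2; 2.4%). At 24 h 2 were higher (Traf5 by 0.58, Tradd by 0.29; 4.8% of all genes) and 0 lower (2.77%). At 12 h 1 was higher (Tradd; 6.07%) and 1 lower (Traf1; 3.14%). At 8 h none was called (1.4% of all genes were called lower), while with the block 3 were lower (Traf1, Traf2 and Tnfaip3; 3.47%). In DMSO cells at 48 h 7 of the 16 were higher than in untreated cells (23.4% of all genes) and 3 lower (20.5%); Traf1 (2.24), Tnfaip3 (1.81) and Birc2 (1.38) were among the higher ones.

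Among 14 genes for ligand shedding and for decay of the Tnf transcript, all tested, 1 was higher (4.31% of all genes) and 2 were lower (4.54%) in TCDD cells at 48 h. Zc3h12a, which encodes the ribonuclease Regnase-1, was higher by 0.55 (adjusted p 0.0447), and Zfp36, which encodes tristetraprolin, a protein that promotes decay of Tnf mRNA, was lower by 0.71 (change -0.71, adjusted p 0.00118). At 36 h 1 was lower, Zfp36 (2.4% of all genes), and 0 were higher. With the day as a block 3 were higher at 36 h, namely Rhbdf1, Furin and Zc3h12a (6.06% of all genes). Rhbdf2, which encodes the iRhom2 partner of the TNF-shedding protease ADAM17, was lower at 8 h (-0.57, adjusted p 0.036) and 48 h (-0.75, adjusted p 0.00207). Zfp36l2, a relative of Zfp36, was higher at 8 h, at 11.53 to 11.84 with TCDD and 10.77 to 11.19 with DMSO (0.85, adjusted p 6.54e-05), and at 12 h (0.52, adjusted p 0.0111). The largest change of this list in vehicle cells was that of Zc3h12a, which was 3.93 above untreated cells at 8 h (adjusted p 8.47e-19).

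Of 11 other ligands of the family, 7 were measured and 3 passed the filter: Tnfsf4, Tnfsf8 and Tnfsf10. None of the 3 was called in a TCDD comparison, with or without the block. In DMSO cells at 48 h Tnfsf8, the CD30 ligand, was higher than in untreated cells (1.34, adjusted p 0.000803), Tnfsf10, the TRAIL gene, was higher (0.65, adjusted p 0.0407) and Tnfsf4, the OX40 ligand gene, was lower (-1.52, adjusted p 0.00397).

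The genes next to the ligands were read to see whether the changes were shared along the chromosome, taking the 3 nearest protein-coding genes on each side in the RefSeq gene table. Around Ltb, Tnf and Lta, 5 of 6 neighbours were tested, and 1 of their 25 TCDD pairs was called (Ddx39b at 24 h, -0.28, adjusted p 0.0292), where 7.14% of all pairs were. In DMSO cells 11 of 25 pairs were called (28.9% of all pairs), 10 of them lower (14.8%), with Aif1 lower from 12 h on (-1.55 at 48 h, adjusted p 0.00039). Around Tnfsf9, Cd70 and Tnfsf14, 5 of 6 were tested, and 1 of 25 TCDD pairs was called, Dennd1c at 12 h (1.06, adjusted p 0.00351). With the day as a block 3 of 25 were called (13% of all pairs), with Trip10 higher at 12 h (0.47, adjusted p 0.00516, against 0.13 without the block) and at 36 h (0.44, adjusted p 0.0129, against 0.226). In DMSO cells 4 of those 25 pairs were called, 2 higher and 2 lower. Around Tnfsf13b, on chromosome 8, 2 of 6 were tested and none was called with TCDD, while 2 of 10 pairs were in DMSO cells. The block added 1 DMSO pair there (Lig4 at 12 h, 0.67, adjusted p 0.0173) and 1 around Ltb (Prrc2a at 48 h, -0.59, adjusted p 0.00685).

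Genes with the most similar course were ranked by Pearson's r over the 11 group means, a description with no test since the means share arrays and a general time course. For Tnfsf14 these were Ly86 (0.956), Tec (0.953) and Aif1 (0.947), and for Ltb Nckipsd (0.955), Kdm2b (0.952) and Ly6d (0.937). For Lta they were Zkscan1 (0.962), Ppan (0.960) and Supv3l1 (0.956), and for Tnfsf13b Metap1d (0.976), Pde12 (0.964) and Nubp2 (0.964). For Tnfsf9 they were Pank2 (0.968), Tap1 (0.964) and Icam1 (0.963), for Cd70 Pmaip1 (0.980), Chid1 (0.979) and Rhbdd1 (0.978), and for Tnf Ctsw (0.855), P2ry4 (0.851) and Wdr95 (0.850). Pearson's r compares shape and not size. The group means of these most similar genes spanned from 0.43 (Supv3l1) to 2.65 units (Nckipsd). Those of Lta ran from 5.12 to 8.34 and those of Ltb from 7.69 to 11.76. Among the ligands themselves, r over the 11 means was 0.898 for Tnfsf9 and Cd70, 0.865 for Ltb and Lta, 0.855 for Tnfsf14 and Ltb, and -0.787 for Tnfsf13b and Cd70.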

How the data were processed

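Expression was measured on 44 Affymetrix Mouse430_2 arrays. The deposited values are linear signal intensities; the submitters' processing notes name GCOS 1.0. On each array the mean signal without the lowest and highest 2% was 500.0, so values had been scaled before deposit.

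After 64 controls were removed, values were quantile normalized and taken as log2(signal + 16). Each gene was read from its brightest probe set with 1 symbol (34945 probe sets; 932 have several symbols and 9160 none), and genes whose highest group mean exceeded the median of all values (6.21) were tested. limma 3.58.1 (R 4.3.3) fitted 11 group means, with two-sided moderated tests and Benjamini-Hochberg adjustment per comparison, and was tested on simulated data. Same-numbered replicates share a day, per the series' design text: the median r between deviations was 0.176 for arrays of one day and -0.0655 for arrays of different days, and 18 of 20 TCDD and DMSO pairs had r above 0.1. The replicate block is given beside ligand and neighbour results whose call it changes.

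The ligands, gene lists, neighbours, marker lists, alternatives and arrays standing apart were chosen with earlier results of these data known. Genes named are the ligands, Cyp1a1, up to 4 called genes per list with the largest changes, neighbours and the 3 genes most alike; other list genes and the markers named were named after their values were seen. Sequences are RefSeq's (GRCm38.p6). Figures were drawn with matplotlib 3.10.9.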

Additional observations from a re-analysis of the deposited data

Results flagged for a closer look

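Among 110 groups of 4 arrays (10 probe sets by 11 groups), 4 held an array far from the other arrays, by a gap over range above Dixon's 95% critical value; chance gives about 1 in 20. Ltb in DMSO cells at 24 h had day 3 at 8.15, the others at 7.47 to 7.58 (0.8366). Tnf in DMSO cells at 36 h had day 1 at 6.55, the others at 7.28 to 7.32 (0.9453). Tnfsf9 in TCDD cells at 8 h had day 4 at 12.63 and the others at 12.59, a gap of no practical size in a very tight group (0.8959). The dimmest probe set of Tnfsf13b in DMSO cells at 36 h had day 1 at 5.82, the others at 5.50 to 5.54 (0.8687).

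The TCDD effect differed between times, by limma's F test with an adjusted p below the threshold, for Tnfsf14 (0.000166), Tnfsf13b (0.000481), Tnfsf9 (0.00176) and Lta (0.00533). The changes at 8 and 48 h were 0.46 and 2.66 for Tnfsf14, -0.66 and 1.46 for Tnfsf13b, 0.51 and 0.07 for Tnfsf9, and -1.03 and 0.62 for Lta. These F tests reuse the arrays of the comparisons at single times.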

How the results depend on the processing

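For each of 16 alternatives 133 values of the ligands were recomputed. Of these 2128 values none changed sign among called ones, 82 lost a call and 29 gained one. The other 2017 had the same outcome as in the main fit. They include values that were called in neither fit, so they do not count calls that were kept. The day as a replicate block added 9 calls and ended none; those for Tnfsf14, Ltb, Lta and Tnf are given above and it changed no other call of a ligand. The calls of ligands in DMSO steps numbered 8, against 2 with only the compared arrays and 4 to 8 with 1 day left out. Those in TCDD steps numbered 7, against 1 with only the compared arrays, 4 without the filter and 2 to 4 with 1 day left out. Genes whose TCDD effect differed between times numbered 4, against 2 to 4 with 1 day left out. The cause was not tested. The 10 TCDD calls became 7 to 9 and the 26 calls against untreated cells 25 to 26 with 1 day left out.

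Over all genes, TCDD calls at 8, 12, 24, 36 and 48 h numbered 497, 1103, 907, 705 and 1059, and with the block 1004, 1950, 1625, 1307 and 1870. With only the compared arrays they were 312, 401, 670, 437 and 311, and without day 2 they were 236, 508, 472, 278 and 449. Weak signals limit Tnfsf14, Lta and Tnfsf13b, whose low groups lie near the floor of 4, and 4 arrays a group limit the precision of all values.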
